A study of Mus musculus with 2 samples.

Results

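Aquaporins are channel proteins that let water cross the cell membrane, and a subgroup of them, the aquaglyceroporins, also passes glycerol and other small solutes. The comparison covered 9 genes of the family, Aqp1, Aqp2, Aqp3, Aqp4, Aqp5, Aqp7, Aqp8, Aqp9 and Aqp11, which were read by 14 of the 41174 probes of the array. The members were taken by gene name, and the family was selected on its ratios in this same comparison, so the values below are a description and carry no test. Of the 9 genes, Aqp1 was far lower in the RNA labeled KO, Aqp5 was lower by less than 2-fold, and the remaining 7 lay within 0.219 of 0 on the log2 scale.

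RNA came from embryonic fibroblasts (MEFs) of C57BL/6J mice, without treatment. One RNA was labeled LATS2-/- (KO) and the other LATS2+/+ (WT). The genotype field spells the gene LAT2. Lats2 is a kinase of the Hippo pathway, which restrains the coactivators YAP and TAZ. Each RNA was marked with Cy5 (red) or Cy3 (green) and both were hybridized together to an Agilent mouse array. The KO RNA carried Cy5 on the first array and Cy3 on the second, the dye-swapped array. The study whose methods are used here worked with several independent MEF lines and littermate controls. It names another deposit for its arrays, so whether these 2 are among them is not known. The labels do not say which lines, passages or RNA preparations these arrays hold. Both arrays were therefore taken as a technical dye swap of 1 pair of RNAs and counted as 1 replicate. If that holds, their spread covers hybridization and dye error and leaves out the variation between animals or cultures.

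The 4 Lats2 probes were well above background in every channel. On the log2 scale of KO over WT, 3 of them were higher in the RNA labeled KO, at 0.56, 0.56 and 0.63, and 1 was lower, at -0.35. The deleted part of the gene is not given in the sources used here, and a probe outside it checks nothing. In the file coordinates, the 3 higher probes lay between 56644080 and 56645305 on chromosome 14, and 2 of them overlap. The lower probe lay apart from them, at 56676512-56676571. The 3 thus read 1 stretch of the gene and are not 3 separate checks. The targeted gene went against the labels in 3 of its 4 probes without settling them. Every direction below is given between the RNA labeled KO and the RNA labeled WT. All 10 fibroblast marker genes, collagens and Thy1 among them, were well above background in either RNA or in both, with a median log2 ratio of -0.33. The probe of Vim was so in 3 of its 4 channels. Each array held 45018 spots, of which 390 and 378 were left out for outlier flags, and none was saturated. Across 40875 probes a single ratio differed between the arrays with an SD of 0.133 on the log2 scale, which gives 0.0942 for the mean of both.

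Aqp1 is the water channel of red blood cells, of most microvascular endothelium and of the kidney proximal tubule. Aqp5 serves secretory glands and the lung, and Aqp2 is the vasopressin-regulated channel of the kidney collecting duct. Aqp4 is the channel of astrocyte end-feet. Aqp8 is found in liver, pancreas and gut, and Aqp11 is an unorthodox member of intracellular membranes. Aqp3, Aqp7 and Aqp9 are the aquaglyceroporins, known from skin and collecting duct, from fat cells and from liver.

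The promoters of Aqp1 and Aqp5 are shown because these members had the ratios farthest from 0. Each sequence holds the 250 bases before the RefSeq transcript start on build GRCm38.p6, 5′ to 3′ on the plus strand, at chr6:55336049-55336298 for Aqp1 and chr15:99590778-99591027 for Aqp5. Capitals mark every match to the letters GGGCGG, the core of the GC box bound by SP factors, on either strand, and no match overlapped another.
Aqp1: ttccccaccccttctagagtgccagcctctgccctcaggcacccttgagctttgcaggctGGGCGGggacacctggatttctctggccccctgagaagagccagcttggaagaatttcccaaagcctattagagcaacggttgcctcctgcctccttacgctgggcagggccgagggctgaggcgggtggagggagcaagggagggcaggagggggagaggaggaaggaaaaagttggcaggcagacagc
Aqp5: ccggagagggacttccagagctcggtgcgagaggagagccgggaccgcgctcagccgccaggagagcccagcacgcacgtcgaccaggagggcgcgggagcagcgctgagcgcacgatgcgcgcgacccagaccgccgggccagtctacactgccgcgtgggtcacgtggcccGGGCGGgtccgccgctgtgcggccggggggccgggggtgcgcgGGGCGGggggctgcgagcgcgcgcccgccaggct
The Aqp1 window held 1 GC box core, which began 190 bases before the start, and 5 CpG dinucleotides at 62% G and C. The Aqp5 window held 2 such cores, at 77 and 34 bases before the start, and 38 CpG dinucleotides at 78.4% G and C. The median of 32851 mouse promoters was 6 CpG dinucleotides and 52.4% G and C, and the CpG count of Aqp5 stood at the 98.3rd percentile against the 47.0th for Aqp1. A GC box core was present in 32.7% of all these promoters. Neither window held TATAAA (12.4% of all promoters), CCAAT (33.8%) or GGAATG, the core of the motif of the TEAD partners of YAP (12.6%), on either strand. Of the 8 members with a promoter in the table, GGAATG occurred only in that of Aqp8, where it began 221 bases before the start. A match of letters is a description of the window and no evidence of binding.

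Aqp1 was read by 1 probe, at chr6:55278064-55278123 in the file coordinates (NCBI36, mm8), matched by the files to NM_007472. Whether the probe lies in coding or non-coding exon sequence was not analyzed here. Its mean signal on the array with KO in Cy5 was 3464 units in the RNA labeled KO and 13006 in the RNA labeled WT, over local backgrounds of 38 and 31. On the dye-swapped array it was 1042 units in the RNA labeled KO and 37531 in the RNA labeled WT, over 27 and 33. The Aqp1 spot was well above background in all 4 channels, and in both dye orientations the RNA labeled WT was the brighter.

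After background correction and normalization, the log2 level of Aqp1 was 11.05 and 10.72 in the RNA labeled KO and 14.44 and 14.50 in the RNA labeled WT, giving the array with KO in Cy5 first each time. The levels of the 2 RNAs did not overlap. This was also so for the brightest probes of Aqp2, Aqp4, Aqp5 and Aqp8, for Aqp4 at a mean ratio of only -0.06, so it sets no gene apart. The share of all probes without overlap is not given here, and with 2 levels per RNA nothing is read from it. The log2 ratio of KO over WT was -3.39 on the first array and -3.78 on the second, or 10.5-fold and 13.8-fold more in the RNA labeled WT. The mean of both arrays was -3.59, a 12.0-fold difference, so that the RNA labeled KO held 8.33% of the Aqp1 signal of the RNA labeled WT. The 2 ratios differed by 0.39, and 5.11% of the 1312 probes of like brightness differed by more. For those probes the SD of a ratio on a single array, not of the difference, was 0.140. With 1 replicate per genotype the difference has no biological replicate check, and in bulk RNA fewer cells that express Aqp1 and less Aqp1 RNA per cell cannot be told apart.

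A probe was called when it had a difference of 2-fold or more, alike in direction on the first and the second array, and was well above background in the RNA it was higher in on both. Among the 9 genes, 1 was called lower in the RNA labeled KO (Aqp1) and 0 were called higher. Of the 24186 probes of the array well above background in either RNA or in both, the rule called 500 lower (2.07%) and 599 higher (2.48%). By the brightest probe of each gene it called 411 of 15877 genes so above background lower (2.59%) and 469 higher (2.95%). Since the family was chosen on this contrast nothing is read from its count. The median log2 ratio of the 9 genes was -0.05, beside -0.00026 over all genes. Of the 24186 probes, 10 had a lower mean ratio than Aqp1.

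**Figure D1:**
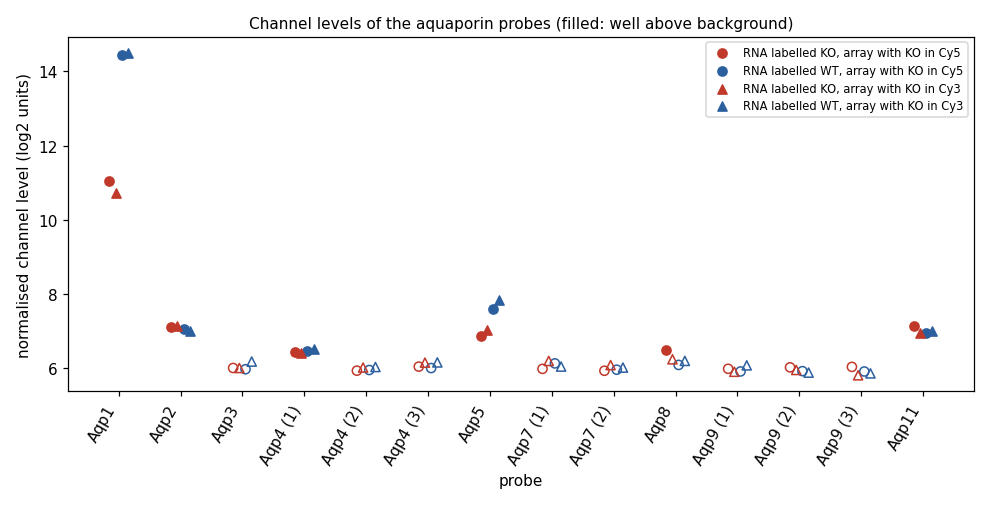
Normalized log2 channel level (vertical axis) of each of the 14 aquaporin probes (horizontal axis; the brightest probe of a gene comes first), in the RNA labeled KO (red) and the RNA labeled WT (blue), on the array with KO in Cy5 (circles) and with KO in Cy3 (triangles). Filled symbols are well above background; Aqp1 separates near 11 and near 14, Aqp5 separates by less than 1 unit, and the other probes overlap or nearly overlap. Levels are to be compared within a probe and not between probes.

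Aqp5 was read by 1 probe at chr15:99422734-99422792 (mm8; NM_009701), which was well above background in all 4 channels but dim. Its mean signal was 124 units in each RNA on the array with KO in Cy5, where Cy5 signals were the higher in general (median 96.8 in Cy5 against 60.1 in Cy3). On the dye-swapped array it was 70.9 in the RNA labeled KO and 287 in the RNA labeled WT. The local backgrounds of these spots were 34 and 31 units in the first case and 28 and 33 units in the second, the RNA labeled KO first. After normalization, which balances the dyes, the log2 level was 6.86 and 7.04 in the RNA labeled KO. It was 7.59 and 7.83 in the RNA labeled WT. The log2 ratio was -0.73 and -0.79, with a mean of -0.76, a 1.69-fold difference. The arrays differed by 0.07, and for probes of like brightness the SD of a ratio on a single array was 0.128. Of all probes well above background in either RNA or in both, 4.70% had a lower mean ratio than Aqp5.

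The size of the Aqp5 difference changed with the processing. The offset of 50 used here pulls dim probes towards 0. Without background subtraction the mean log2 ratio was -0.92. With an offset of 10 it was -1.04, and with the processed signals of the scanner software whose dye normalization differs too, it was -1.36, -1.38 on the first array and -1.34 on the second, a 2.57-fold difference. Under the latter 2 settings Aqp5 passed the 2-fold rule beside Aqp1. Over 7 processings that used both arrays, the mean ratio of Aqp5 ranged from -1.36 to -0.76, while that of Aqp1 ranged from -3.63 to -3.51. Among them, keeping outlier-flagged spots left both values as they were, and a deposited table of log2 ratios repeated those of the scanner software. With median centring in place of loess the arrays stood far apart for Aqp1, at -2.39 and -4.62, with a mean of -3.51, and for Aqp5 at -0.44 and -1.19. Every one of these values was below 0 for both genes.

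**Figure D2:**
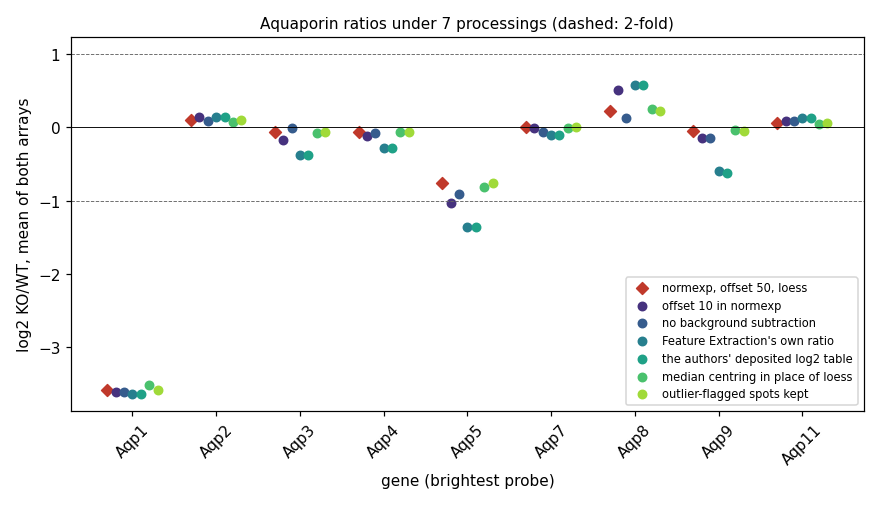
Mean log2 ratio of KO over WT (vertical axis) of the brightest probe of each aquaporin gene (horizontal axis) under 7 processings of the same 2 arrays; the red diamond is the processing used in the text and dashed lines mark 2-fold. Aqp1 stays between -3.63 and -3.51, and Aqp5 crosses the 2-fold line at -1.04 and -1.36.

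Aqp2, the neighbor of Aqp5 on chromosome 15, was well above background in all 4 channels without a difference of note. Its probe lay 12.1 kb from that of Aqp5 in the file coordinates. The log2 level of Aqp2 was 7.12 and 7.15 in the RNA labeled KO and 7.07 and 7.01 in the RNA labeled WT. The mean ratio of 0.09 (0.05 and 0.14) was no larger than the SD of 0.0942 of such a mean. Aqp6, a channel of acid-secreting collecting duct cells that is no member of the set, lay 10.2 kb to the other side of Aqp5, and its ratio was 0.11. It was well above background in 2 of its 4 channels, both on the dye-swapped array. The 3 genes of this cluster had ratios of 0.09, -0.76 and 0.11. Within 250 kb of the Aqp5 probe, 2 further probes were called, both lower in the RNA labeled KO, and they are named after their values were seen. Most other probes in this window were not called. Of the 24186 probes of the array well above background in either RNA or in both, 2.07% were called lower and 2.48% higher. Nothing is read from the count near Aqp5. Racgap1, a regulator of cytokinesis, was at -1.38 at a distance of 26.4 kb, with its other probe at -0.76. Accn2, an acid-sensing ion channel, was at -1.17 at 106 kb, with its other probe, not well above background in any channel, at -0.01.

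Aqp11 was well above background in all 4 channels. Its log2 level was 7.13 and 6.95 in the RNA labeled KO and 6.95 and 7.01 in the RNA labeled WT, so the RNAs overlapped. Its ratio was 0.18 on the first array and -0.06 on the second, with a mean of 0.06. Aqp4 was read by 3 probes, of which 1 was well above background in all 4 channels, with levels of 6.43 and 6.42 in the RNA labeled KO and 6.46 and 6.51 in the RNA labeled WT. Its ratio was -0.06, and the ratios of the 2 dimmer probes, not well above background in any channel, were -0.02 and 0.02. The Aqp4 levels differed by less than the spread between arrays.

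Aqp8 was the member with the highest ratio, and it rested on 1 channel. The probe was well above background only in the RNA labeled KO on the array with KO in Cy5, at 68.6 units over a background of 28. The log2 level was 6.49 and 6.24 in the RNA labeled KO and 6.09 and 6.20 in the RNA labeled WT. The ratio was 0.39 on the first array and 0.04 on the second, and 5.03% of 21439 probes of like brightness differed by more between the arrays. No level in the RNA labeled WT was well above background, so no fold is given.

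The 3 aquaglyceroporins were not well above background in any channel, in any of their 6 probes. Aqp3 had 1 probe, Aqp7 had 2 whose positions overlap, and Aqp9 had 3. Their log2 levels, with those of the 2 dim Aqp4 probes, lay between 5.81 and 6.20 in every channel, and the 8 mean ratios lay between -0.07 and 0.09. At these levels a difference between the RNAs was not detectable. Of the 14 probes of the family, 5 were well above background in all 4 channels, 1 for each of 5 genes, and the ratio had the same sign on both arrays in 7.

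**Figure D3:**
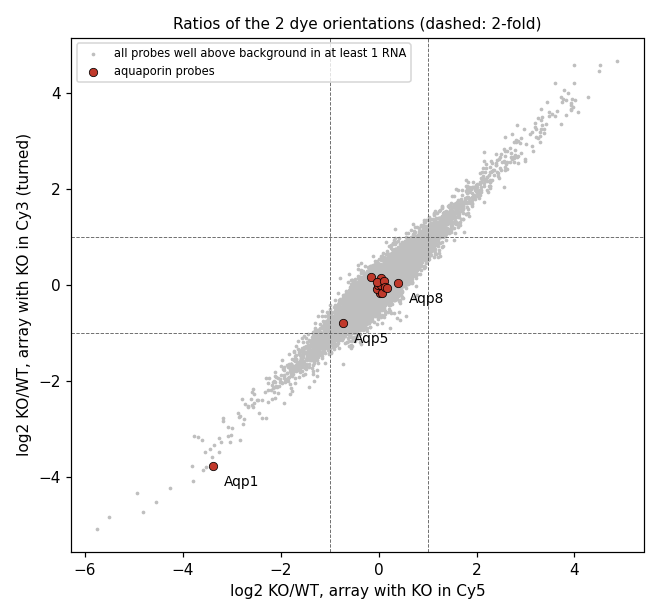
Log2 ratio of KO over WT of each probe well above background in either RNA or in both (gray) on the array with KO in Cy5 (horizontal axis) against the dye-swapped array turned the same way (vertical axis), with the 14 aquaporin probes in red; dashed lines mark 2-fold. Aqp1 lies at -3.39 and -3.78, Aqp5 at -0.73 and -0.79, and the other 12 probes lie around 0.

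No other probe near that of Aqp1 on chromosome 6 had a negative ratio of like size. Within 250 kb of the middle of the Aqp1 probe there were 6 other probes, of which 2 were well above background in all 4 channels. The clone gene C330043M08Rik, 78.3 kb before it, had a ratio of -0.18. Ghrhr, the receptor of growth hormone-releasing hormone, lay 35.9 kb after it with a ratio of 0.03, and Inmt, a methyltransferase of indoles, 178 kb before it with a ratio of -0.08. Neither was well above background in either RNA on both arrays. Adcyap1r1, the receptor of the neuropeptide PACAP, had the only ratio above 1 there: its probe at 152.3 kb was well above background in all 4 channels and higher in the RNA labeled KO, at 0.86 and 1.23 (mean 1.05), short of 2-fold on the first array. A further Adcyap1r1 probe, at 149.7 kb, was not well above background in any channel and had a ratio of 0.07.

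**Figure D4:**
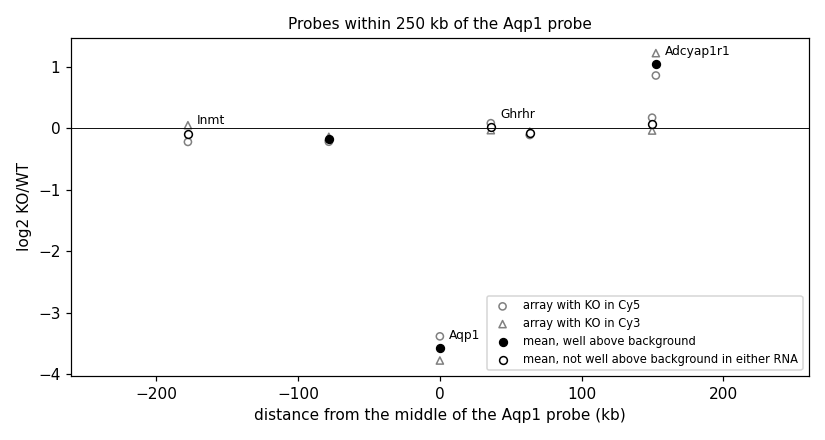
Log2 ratio of KO over WT (vertical axis) of the probes within 250 kb of the middle of the Aqp1 probe (distance in kb on the horizontal axis); open gray symbols are single arrays, and black circles are means, filled where the probe was well above background in either RNA or in both. Aqp1 stands at -3.59 and every other mean lies between -0.18 and 1.05; the unnamed circles are C330043M08Rik at -78.3 kb, a clone at 63.4 kb and the dimmer Adcyap1r1 probe at 149.7 kb.

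The 5 genes with the pair of ratios most like that of Aqp1 were sought among 14723 genes well above background in both RNAs on both arrays, by the Euclidean distance over the 2 arrays. Rasgrp2, an exchange factor for Rap and Ras proteins, was nearest at a distance of 0.134, with a mean ratio of -3.66. Its 3 probes ranged from -3.66 to 0.08. Lgals3, which encodes galectin-3, followed at 0.198 with -3.49, and Fos, the AP-1 subunit, at 0.227 with -3.73. D12Ertd647e stood at 0.325 with -3.37. Adcy7, an adenylyl cyclase, stood at 0.358 with -3.44, and its other probe gave -1.45. A likeness over 2 arrays of 1 pair of RNAs describes size only.

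Cells move water together with solutes, and genes of solute handling were read beside the channels. The lists held 36 genes, all on the array, of which 31 were well above background in either RNA or in both. Of the 31, 1 was called higher and 3 were called lower in the RNA labeled KO. Of all genes well above background in either RNA or in both, 2.95% were called higher and 2.59% lower. The median log2 ratio of the 31 was -0.02, beside -0.0032 over all genes well above background in either RNA or in both. The family members outside the set, Mip of the lens (-0.01), Aqp6 (0.11) and Aqp12 of the pancreas (0.01), were in neither RNA well above background on both arrays.

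The gene with the largest difference of these lists, Slc38a2, belonged to the osmotic response list. NFAT5 is the transcription factor of the response to hypertonic stress, and the other genes of the list encode its targets or osmolyte carriers. Slc38a2, which encodes the amino acid transporter SNAT2 and is also known to respond to amino acid supply, had log2 levels of 11.98 and 11.96 in the RNA labeled KO and 14.10 and 13.78 in the RNA labeled WT. The ratio was -2.12 and -1.82, with a mean of -1.97, a 3.93-fold difference. Its 4 probes, all well above background, ranged from -2.20 to -0.92.

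Hspa4l, which encodes an osmotic stress chaperone, was called lower at -1.15 and -1.41 (mean -1.28, 2.43-fold), with its 4 probes between -1.28 and -0.62. Nfat5 itself was at -1.06 and -0.82 (mean -0.94) and missed the rule on the second array, and its 6 probes ranged from -0.94 to 0.01. Akr1b3, the aldose reductase that makes sorbitol, was at -0.37 and Slc5a3, the myo-inositol carrier, at -0.34. Slc6a6, the taurine carrier, was at 0.32. Slc6a12, the betaine carrier, was not well above background. In all, 2 of 7 genes of the list were called lower and 0 higher. Of all genes well above background in either RNA or in both, 2.59% were called lower and 2.95% higher. The list was chosen with earlier results of these data known, so nothing is read from its counts. The median ratio of the 6 genes above background was -0.65. The call of Hspa4l was lost with median centring and when its probes were averaged, and that of Slc38a2 was kept in both.

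All 7 genes of glycerol handling were well above background, while the channels that carry glycerol were not. Mgll, the lipase that frees glycerol from monoglycerides, was called lower, with levels of 12.19 and 12.18 in the RNA labeled KO and 13.26 and 13.30 in the RNA labeled WT. Its ratio was -1.09, a 2.13-fold difference. A further Mgll probe gave -1.05 and the remaining one, not above background, -0.07. The call was lost with median centring and when the 3 probes were averaged. The glycerol phosphate dehydrogenases were at -0.40 (Gpd1, cytosolic) and 0.43 (Gpd2, mitochondrial). Glycerol kinase (Gyk, 0.12), the lipases Pnpla2 (0.10) and Lipe (-0.25) and the acylglycerol kinase Agk (0.06) completed the list, whose median was 0.06.

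Of 17 genes of cell volume regulation, all well above background, 1 was called. Atp1b1, a beta subunit of the sodium pump, had log2 levels of 10.03 and 9.69 in the RNA labeled KO and 8.60 and 8.41 in the RNA labeled WT, a mean ratio of 1.36 or 2.56-fold. Median centring ended this call. Atp1b3, a further beta subunit, was at -0.29. Among the subunits of the volume-regulated anion channel, Lrrc8d reached 0.96 (1.02 and 0.89) and missed the rule on the second array, and Lrrc8a, Lrrc8b and Lrrc8c were at 0.16, -0.11 and 0.36.

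The cation-chloride cotransporters Slc12a2, Slc12a4 and Slc12a7 were at 0.62, 0.33 and 0.65, and the kinases Wnk1, Stk39 and Oxsr1 were at 0.35, 0.31 and -0.02. The chloride transporter Clcn3 was at -0.32 and the cation channel Trpv4 at -0.15. The median of the list was 0.16. Of the urea transporters, Slc14a2 was at -0.33 and Slc14a1 was not well above background.

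**Figure D5:**
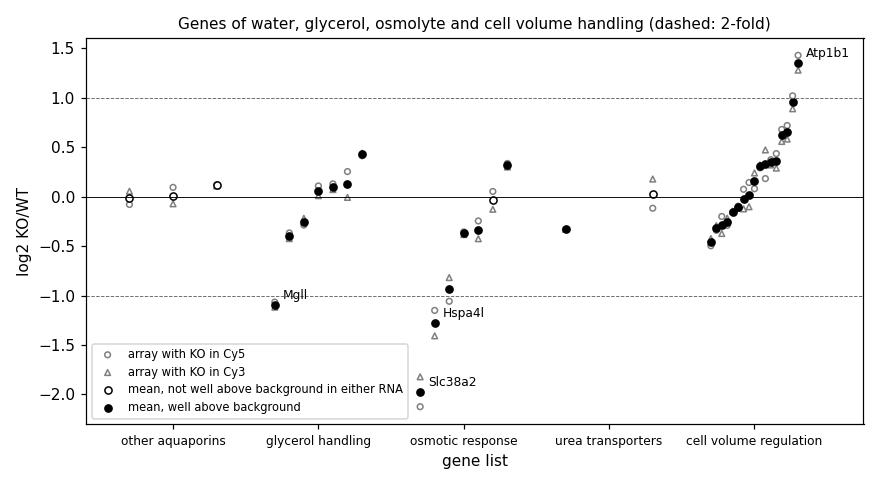
Log2 ratio of KO over WT (vertical axis) of the 36 genes of water, glycerol, osmolyte, urea and cell volume handling, grouped by list (horizontal axis); open gray symbols are single arrays and black circles are means, open where the gene was well above background in neither RNA, and dashed lines mark 2-fold. Slc38a2, Hspa4l and Mgll lie below -1 and Atp1b1 above 1.

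Marker genes of cells known for aquaporins were read for the same RNAs. Of 8 endothelial markers on the array, 0 were well above background in either RNA on both arrays, and their summed level, on a linear scale, was 565 and 533 in the RNA labeled KO and 524 and 558 in the RNA labeled WT. Of 8 erythroid markers, 1 (Hbb-b1) was well above background in both RNAs, at a ratio of 0.0036, and the sums were 578 and 581 against 581 and 580. The other erythroid markers, Alas2 and Klf1 among them, stood in neither RNA well above background on both arrays. Every level holds the offset of 50, so sums over probes not above background could hardly differ between the RNAs. Nothing is read from the likeness of these sums. The part of these cells in the Aqp1 value was not tested.

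In each of the other marker lists except that of fibroblasts at least 1 gene was called. Of all genes well above background in either RNA or in both, 2.59% were called lower and 2.95% higher. The lists were chosen with earlier results of these data known, so nothing is read from these counts. The sums below differed mainly through the called genes. Of 7 mesothelial markers 2 were well above background, Krt19, called higher at 2.12, and Msln at 0.86, the latter in the RNA labeled KO only, and Upk3b, Wt1, Krt8, Krt18 and Upk1b were not. The mesothelial sum was 849 and 775 in the RNA labeled KO and 510 and 470 in the RNA labeled WT. Of 7 epithelial markers 4 were well above background in either RNA or in both and Krt7 was called higher at 1.67, with Epcam (named Tacstd1 on the array), Cdh1 and Cldn4 not above background. Krt5, Krt14 and Cldn7 were at 0.01, -0.08 and -0.32. The epithelial sum was 1485 and 1556 against 788 and 826. Their part in the aquaporin values was not tested.

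Of 7 adipocyte markers 3 were well above background in either RNA or in both, and Pparg (2.83) and Lpl (2.78) were called higher, with sums of 5595 and 4926 in the RNA labeled KO against 1023 and 1041. Adipoq, Plin, Cidec and Cfd were not above background in either RNA, and neither was Aqp7, the channel of fat cells. Of 7 macrophage markers 3 were above background and Cd14 was called lower (-1.05), with sums of 614 and 611 against 814 and 802. Ptprc, Emr1 and Tyrobp were not above background in any channel. Itgam was well above background in 2 of its 4 channels, but in neither RNA on both arrays. Cd68 was at 0.14 and Csf1r at -0.05. Of 5 astrocyte markers 3 were above background and Slc1a3 was called lower (-1.19), with Gfap and Slc1a2 not above background and sums of 498 and 498 against 610 and 635. The 3 Slc1a3 probes ranged from -1.19 to 0.005. Aldh1l1 was higher at 0.64, well above background in the RNA labeled KO only, and S100b was at 0.03. The part of these cells in the aquaporin values was not tested either.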

How the data were processed

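Total RNA was labeled with a Quick-Amp kit, and 2 Agilent 2-color arrays with exchanged dyes were read with Agilent Feature Extraction 10.5.1.1 per the file headers. The authors deposited for each spot its mean signal and local background, in arbitrary units of intensity, together with a log10 ratio of Cy5 over Cy3. A second deposited table held log2 ratios and followed KO over WT of the processed signals on both arrays (r of 1.00 across 41174 probes; 87.1% and 80.6% within 0.01). Its column medians were -0.02 and 0.04.

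The background step was normexp at an offset of 50, followed by loess within each array with control spots at weight 0 (limma 3.58.1, R 4.3.3). Control spots and spots with outlier flags were then left out. The spots of a probe were averaged, and ratios of the dye-swapped array were turned before the arrays were averaged to log2 of KO over WT. Channel levels were set to a common scale by Aquantile. A probe counted as well above background by the flag of Feature Extraction, in at least 0.5 of its spots. The brightest probe stood for a gene. With 1 replicate per genotype the values carry no test, apart from the t-test named below as an alternative.

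The members and all gene lists were chosen with earlier results of these data known. Named were every member, the genes of the lists (some of which are not reported here), the probes within 250 kb of Aqp1 and the 5 genes nearest to its ratios. Promoters are those of RefSeq (GRCm38.p6), and 8 of the 9 members had an entry. The alternatives were an offset of 10, no background subtraction, the ratio of Feature Extraction, the deposited log2 table, median centring, outlier-flagged spots kept, each array alone, all probes of a gene, other call rules and the t-test of the study's methods. Analyses ran in Python 3.11.15 with pandas 2.3.3.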

Additional observations from a re-analysis of the deposited data

How the results depend on the processing

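Aqp1 stayed lower in the RNA labeled KO under all 9 alternatives run for it, with a log2 ratio of -3.39 on the array with KO in Cy5 alone and -3.78 on the array with KO in Cy3 alone. These alternatives are not independent. Keeping flagged spots or averaging all probes left its value as it was, and the deposited table repeated the ratio of Feature Extraction. The count of aquaporin genes called lower was 2 in place of 1, with Aqp5 added, at an offset of 10, with the ratio of Feature Extraction, with the deposited log2 table and at a 1.5-fold threshold. No alternative called an aquaporin higher. Feature Extraction's own ratio called 1220 probes lower and 1280 higher, and the deposited log2 values called 1224 and 1284. A 1.5-fold threshold called 1510 and 1482. Median centring in place of loess called 170 and 324, a lower share of 34.4% against 45.5%. Before loess the ratios of the arrays correlated at -0.18 across probes, and after it at 0.899. If the arrays are a technical dye swap, the methods' t-test on them sees hybridization and dye error only. The methods join an unadjusted p under 0.05 in this test to a 2-fold difference. Aqp5, at 1.69-fold, could thus not pass whatever its p. With both conditions, 1 aquaporin (Aqp1) and 441 probes were called lower and 524 higher, and 0 of each after Benjamini-Hochberg. Of the solute handling genes, 5 were called lower with the ratio of Feature Extraction or the deposited table (Gpd1 and Lipe added), and 1 (Slc38a2) with median centring or when all probes of a gene were averaged. Those called higher numbered 0 with median centring and 2 (Lrrc8d added) on the array with KO in Cy5 alone. Of 170 recomputed values 130 stayed close to the value reported (a count within 1.5 times, a ratio within 1 SD between arrays), 40 did not, and 0 of the called values changed sign. A fit by replicate number could not be made, as a genotype holds a single replicate. With the ratio of Feature Extraction, Aqp3, Aqp4, Aqp8 and Aqp9 were at -0.38, -0.28, 0.57 and -0.60, and the cause was not tested. The arrays stood far apart for Aqp3 (0.82 and -1.59), Aqp8 (1.04 and 0.09) and Aqp9 (0 and -1.21). This was also so for Aqp7 (-1.23 and 1.03), whose mean of -0.10 hides opposite signs. For Aqp4 they gave -0.23 and -0.33. Signal over background limits what the probes of Aqp3, Aqp7 and Aqp9 can show, as none was well above background.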
